A study of Homo sapiens with 2 samples.

Results

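S-phase cells were HepaRG cells in which transcripts of the DNA replication machinery were most abundant, and they made up 1089 of the 9348 cells kept from vehicle-treated cultures. The cells were chosen by their own RNA: each cell was scored by the mean of ln(1 + UMIs per 10000) over 10 genes: PCNA, RRM2, MCM2, MCM3, MCM4, MCM5, MCM6, HELLS, CLSPN and ATAD2. A UMI is a barcode that counts each captured RNA molecule once. The S-phase cells were the top 12% of each library by this score, after the top 12% by TOP2A, MKI67 and CENPF, called G2/M cells here, had been left out. This gave 516 S-phase cells in replicate 1 and 573 in replicate 2. They were set against 534 and 587 G2/M cells, and against 2048 and 2201 low-score cells, which scored at or below the library median and were not G2/M cells. The other 1356 and 1533 cells lay between these groups and were not compared. Only 32 cells were in the top 12% by both measures.

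HepaRG is an established human liver cell line sold as terminally differentiated cultures and used in toxicology in place of primary hepatocytes. All groups came from the same 2 libraries, cultured for 7 days and exposed to 0.1% DMSO, the solvent, for 24 h, with no other agent. Single-cell RNA was captured with a 10x Genomics kit after dissociation in the presence of actinomycin D and anisomycin, which block transcription and translation. Both libraries carry the label of biological replicate 1, so their spread may be technical and says nothing of variation between independent cultures.

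S phase is the part of the cell cycle in which the genome is copied. In the preceding G1 phase, MCM helicases are loaded on replication origins, and E2F transcription factors, released from the retinoblastoma protein, then switch on cyclin E and the genes of the replication machinery. New DNA is packed with histones made at the same time, and the genes of mitosis are switched on later, in G2. Differentiated hepatocytes rarely divide, whereas the HepaRG line keeps dividing until it differentiates.

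The libraries held 4591 and 4998 barcodes with 85475317 and 57246647 UMIs, and they shared 10 barcodes, none of them between S-phase cells. S-phase cells had a median of 20413 UMIs in replicate 1 and 12254 in replicate 2. G2/M cells had 24046.5 and 13495, and low-score cells 14773.5 and 8699. The median share of mitochondrial UMIs was 7.84% and 8.01% in S-phase cells, 7.71% and 7.996% in G2/M cells, and 10.1% and 10.4% in low-score cells. Depth and mitochondrial share thus moved with the groups. Scrublet, which scores likely doublets, marked 15 and 2 barcodes at its own thresholds and did not work as a filter here. Of the S-phase cells, 1.36% and 2.97% lay in the top 4% of its scores, against 3.18% and 2.73% of G2/M cells and 2.54% and 1.95% of low-score cells.

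The score had no gap at the edge of the group. The last cell inside the top 12% of replicate 1 scored 0.9002 and the first cell outside scored 0.8995, and in replicate 2 these were 0.8555 and 0.8552. For the summed TOP2A, MKI67 and CENPF, the last cell left out as a G2/M cell held 27.017 and 27.048 UMIs per 10000, and the next cell 26.998 and 27.029. The 50 cells just inside the edge held 342 and 299 CPM of PCNA, and the 50 just outside held 339 and 334 CPM. CPM gives the UMIs of a gene per 1000000 UMIs summed over the cells of a group in 1 library. CCNE2, a cyclin E gene outside the score, was at 48.1 and 49.3 CPM just inside the edge and at 41.8 and 76.4 CPM just outside. Cells in no group thus held this transcript too. The edge of the group lay within a continuous range of scores.

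**Figure D1:**
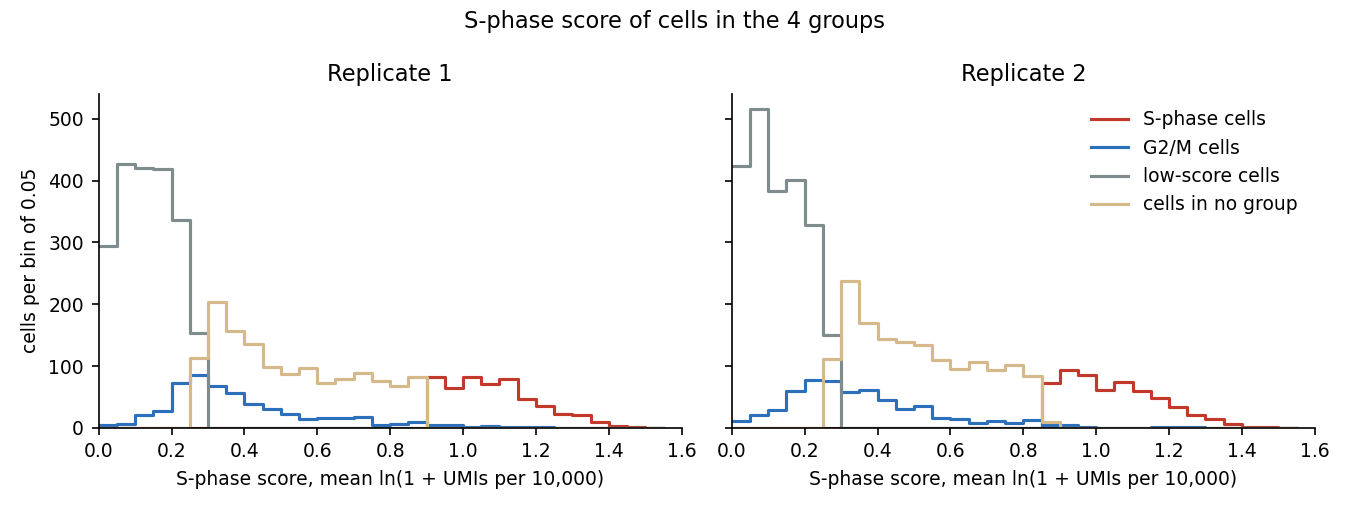
S-phase score of the cells in each library, as cells per bin of 0.05, for S-phase cells (red), G2/M cells (blue), low-score cells (grey) and cells in no group (tan). S-phase cells form the right end of an unbroken distribution, with medians of 1.07 and 1.03 in replicates 1 and 2, against 0.34 and 0.32 in G2/M cells and 0.14 and 0.12 in low-score cells.

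Promoter sequences are shown first for 4 genes, because they carry the DNA letters that the S-phase and mitotic groups are known for. In E2F target genes, E2F factors bind the letters TTTNGCGC or close variants. In many mitotic genes, the MuvB complex binds TTTGAA, called the cell cycle homology region (CHR). The stretches are the 150 bases before the RefSeq transcription start, on the strand of the gene, in build GRCh38.p14, with each match on either strand in capitals. MCM6, a helicase subunit and one of the score genes, lies at chr2:135876444-135876593 on the minus strand and holds 3 E2F matches, of which 2 overlap. E2F1, which encodes an E2F factor, lies at chr20:33686386-33686535 on the minus strand and holds 1 E2F match. PLK1, a mitotic kinase, lies at chr16:23678739-23678888 on the plus strand and holds 1 CHR match. DLGAP5, a spindle assembly factor, lies at chr14:55191586-55191735 on the minus strand and holds 2 CHR matches.
MCM6: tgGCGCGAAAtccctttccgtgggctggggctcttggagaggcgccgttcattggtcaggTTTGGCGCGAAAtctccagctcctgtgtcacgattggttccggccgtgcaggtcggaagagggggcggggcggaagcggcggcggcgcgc
E2F1: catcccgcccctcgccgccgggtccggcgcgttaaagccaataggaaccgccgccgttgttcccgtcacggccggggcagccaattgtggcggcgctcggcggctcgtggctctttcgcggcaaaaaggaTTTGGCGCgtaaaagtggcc
PLK1: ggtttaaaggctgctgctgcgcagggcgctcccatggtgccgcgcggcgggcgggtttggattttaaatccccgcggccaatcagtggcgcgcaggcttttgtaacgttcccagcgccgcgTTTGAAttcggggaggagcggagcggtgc
DLGAP5: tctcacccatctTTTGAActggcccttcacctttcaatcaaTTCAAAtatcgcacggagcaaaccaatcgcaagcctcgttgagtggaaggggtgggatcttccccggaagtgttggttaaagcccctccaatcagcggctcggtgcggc

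The motifs were counted in all 35116 RefSeq windows, which run from 250 bases before to 50 bases after a start. TTTNGCGC was found in 28 of 149 windows (18.8%) of 107 matched genes of the 6 replication lists described below, in 3 of 44 windows (6.82%) of 35 matched G2/M genes, and in 1.79% of all windows. Across the 6 replication lists, the share ran from 1 of 31 windows (3.23%) for checkpoint and repair to 6 of 15 (40%) for G1/S regulators. TTTGAA was found in 14 of 149 windows (9.40%) of the replication lists, in 27 of 44 (61.4%) of the G2/M genes, and in 15.2% of all windows. CCAAT, the letters bound by NF-Y, was found in 52.3%, 70.5% and 34.6% of these windows. Clustered histone genes held the E2F letters in 29.3%, the CHR letters in 34.1% and CCAAT in 85.4% of 41 windows. Matches of different motifs may overlap each other, and a match is a description of the sequence, not a bound site.

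The 10 score genes are described without a test, since they chose the cells. PCNA, the sliding clamp of the polymerases, was at 433 and 426 CPM in S-phase cells of replicates 1 and 2, at 175 and 174 CPM in G2/M cells, and at 89.6 and 88.8 CPM in low-score cells. CLSPN, a checkpoint adaptor at the fork, was at 273 and 276 CPM in S-phase cells, at 49.7 and 40.4 CPM in G2/M cells, and at 5.97 and 6.42 CPM in low-score cells. RRM2, the subunit of ribonucleotide reductase that limits the supply of DNA building blocks, was at 381 and 358 CPM in S-phase cells, at 204 and 202 CPM in G2/M cells, and at 16.3 and 17.4 CPM in low-score cells. RRM2 stayed highest of the score genes in G2/M cells relative to S-phase cells, at a log2 difference of 0.86, and MCM6 was the lowest, at 3.34. The 3 G2/M genes were not at 0 in S-phase cells: TOP2A, the topoisomerase that untangles DNA, was at 399 and 377 CPM in S-phase cells, at 1723 and 1682 CPM in G2/M cells, and at 101 and 112 CPM in low-score cells.

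The label was described with markers that had not chosen the cells. The rule was run with PCNA, MCM2, MCM4, MCM6 and CLSPN alone, and then with the other 5 genes alone, and each set of cells was described by the 5 genes not used. Those genes were 3.62 to 23.9 times higher in the chosen cells than in the matching low-score cells, lowest for PCNA and highest for CLSPN. Of the cells chosen with 5 genes, 890 of 1099 and 919 of 1063 were also S-phase cells under the full rule, which is 81.7% and 84.4% of the 1089. In cells thinned to 4000 UMIs each, CCNE2 had a UMI in 29.7% and 30.4% of S-phase cells, in 1.14% and 0.342% of G2/M cells, and in 0.497% and 0.655% of low-score cells. Unthinned, the shares were 79.1% and 62.5% in S-phase cells, 3.75% and 1.36% in G2/M cells, and 2.00% and 1.68% in low-score cells. The genes left out of a run were thus high in the cells chosen by the other 5. Those cells were not all S-phase cells, and the genes left out belong to the full rule. These runs are therefore no evidence independent of the rule. CCNE2, which is not a score gene, had a UMI in a larger share of S-phase cells than of G2/M or low-score cells. The shares in low-score cells are the background that free RNA in the suspension could reach.

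For all other genes, counts were summed per library and group and compared with edgeR, with the library as a block, over 16901 genes. A gene was called at a Benjamini-Hochberg adjusted p below 0.05 and a change of at least 1.5-fold. Against low-score cells, 2196 genes (13%) were called higher in S-phase cells and 2424 (14.3%) lower. Against G2/M cells, 1970 genes (11.7%) were called higher and 1441 (8.53%) lower. The groups were cut on the RNA of these same cells, so each count tells which genes went with the score and is no evidence independent of it. With S-phase and low-score cells chosen within 5 equal bins of UMIs per cell, 1866 genes were called higher and 1888 lower against low-score cells, and with only cells of at most 15% mitochondrial UMIs, 2075 higher and 2182 lower. Counts of list genes stand beside these shares as a description only. The comparisons share the S-phase cells and are therefore given side by side.

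The E2F factors, cyclins and regulators of the G1/S switch were higher in S-phase cells in both comparisons. All 17 genes of this list were called higher against low-score cells, where 13% of all genes tested were, with a median log2 fold change of 2.99, where the median over all genes tested was -0.03. Against G2/M cells, 15 were called higher, where 11.7% of all genes tested were, and 1 lower, with a median of 1.47, where that over all genes was 0.01. CCNE2 (ENSG00000175305), which encodes cyclin E2, the partner of CDK2 at the start of S phase, was at 95.4 and 89.2 CPM in S-phase cells, at 2.08 and 1.48 CPM in G2/M cells, and at 1.31 and 1.74 CPM in low-score cells. Among genes at a mean of 20 CPM or more, CCNE2 had the largest log2 fold change of S-phase over G2/M cells, 5.64 ± 0.13 (SE, adjusted p = 1.6e-54 by edgeR's quasi-likelihood test). CCNE1, its paralogue, was at 19.3 and 16.9 CPM in S-phase cells, at 0.846 and 0.986 CPM in G2/M cells, and at 3.02 and 3.24 CPM in low-score cells. CCNE1 was therefore lower in G2/M cells than in low-score cells, whereas CCNE2 was near its floor in both.

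Activating and repressing E2F factors were raised together. E2F1, an activator, was at 56.4 and 56.0 CPM in S-phase cells, at 5.46 and 6.53 CPM in G2/M cells, and at 2.71 and 3.42 CPM in low-score cells, with log2 fold changes of 3.25 ± 0.12 (adjusted p = 8.3e-41) and 4.27 ± 0.11 (adjusted p = 3.6e-53). E2F8, a repressor that acts on E2F targets later in S phase, was at 61.6 and 56.0 CPM in S-phase cells, at 19.8 and 21.3 CPM in G2/M cells, and at 1.553 and 1.17 CPM in low-score cells. E2F7, the other such repressor, was called higher in both comparisons too, at log2 fold changes of 1.47 against G2/M cells and 3.39 against low-score cells. CDC25A, the phosphatase that activates CDK2, had log2 fold changes of 2.54 and 4.50 in the same order. The gene called lower against G2/M cells was CCNA2, which encodes cyclin A2, the cyclin of late S phase and G2: it was at 89.8 and 85.6 CPM in S-phase cells, at 218 and 222 CPM in G2/M cells, and at 21.8 and 24.8 CPM in low-score cells. FBXO5, which restrains the anaphase-promoting complex, was not called against G2/M cells, at 72.9 and 75.8 CPM in S-phase cells and 83.8 and 78.2 CPM in G2/M cells.

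**Figure D2:**
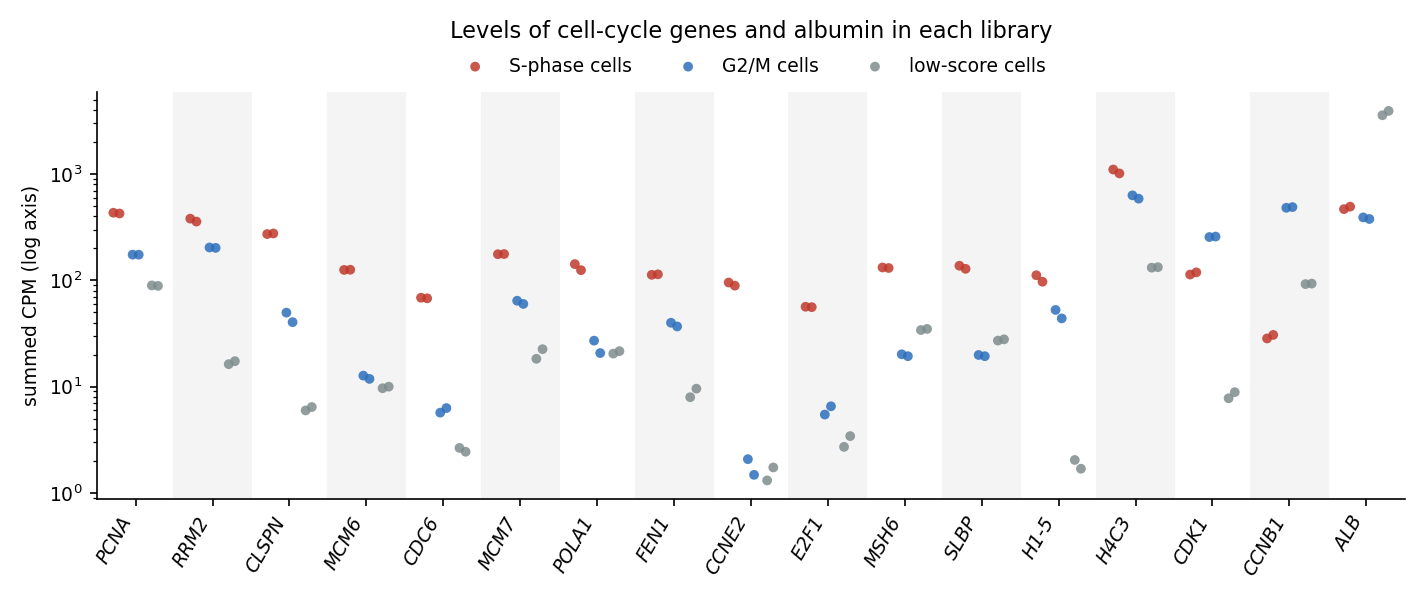
Summed CPM (log axis) of 17 genes in S-phase cells (red), G2/M cells (blue) and low-score cells (grey), with 1 dot per library. The libraries lie close together for every gene, CCNE2 is at 2.08 CPM or less in G2/M and low-score cells, and the order of the groups turns round between MCM6 and CCNB1.

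Of 23 genes that license and fire replication origins, 20 were called higher and 0 lower against low-score cells (median log2 fold change 2.63). Against G2/M cells, 16 were called higher and 1 lower (median 0.98). Among all genes tested, 13% were higher and 14.3% lower against low-score cells, and 11.7% and 8.53% against G2/M cells. CDC6, which loads the MCM helicase, was at 68.7 and 67.8 CPM in S-phase cells, at 5.69 and 6.28 CPM in G2/M cells, and at 2.65 and 2.44 CPM in low-score cells. MCM10, which activates the loaded helicase, was at 81.4 and 82.9 CPM in S-phase cells, at 11.998 and 7.64 CPM in G2/M cells, and at 1.22 and 1.83 CPM in low-score cells. DTL, part of the ligase that destroys the licensing factor CDT1 during replication, was at 92.8 and 93.7 CPM in S-phase cells, at 12.9 and 13.2 CPM in G2/M cells, and at 2.56 and 3.85 CPM in low-score cells. CDC6, MCM10 and DTL were among the 10 largest increases at a mean of at least 20 CPM in both comparisons.

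Not every licensing gene behaved alike. Within the origin recognition complex, ORC1 and ORC6 were called higher in both comparisons, at log2 fold changes of 2.27 and 1.12 against G2/M cells and 3.79 and 3.65 against low-score cells. ORC2, ORC4 and ORC5 were called in neither comparison, and their log2 fold changes lay between -0.43 and 0.11. DBF4, the regulatory subunit of the kinase CDC7 that fires origins, went the other way from its partner: it was at 82.7 and 90.5 CPM in S-phase cells, at 215 and 216 CPM in G2/M cells, and at 30.5 and 35.5 CPM in low-score cells. CDC7 was at 32.4 and 35.9 CPM in S-phase cells, at 20.4 and 16.4 CPM in G2/M cells, and at 7.07 and 7.74 CPM in low-score cells. GMNN, the CDT1 inhibitor geminin, was called higher in both comparisons, at log2 fold changes of 1.24 against G2/M cells and 1.97 against low-score cells.

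The polymerases and other fork proteins were higher almost as a whole. Of 27 genes, 26 were called higher and 0 lower against low-score cells (median 2.33), beside 13% and 14.3% of all genes tested. Against G2/M cells, 20 were called higher and 0 lower (median 1.15), beside 11.7% and 8.53% of all genes tested. POLA1, the catalytic subunit of the polymerase that starts new strands, was at 142 and 125 CPM in S-phase cells, at 27.1 and 20.7 CPM in G2/M cells, and at 20.4 and 21.6 CPM in low-score cells. The G2/M and low-score cells overlapped in this gene, and the S-phase cells lay far above both. FEN1, the flap nuclease that trims Okazaki fragments, was at 113 and 114 CPM in S-phase cells, at 39.9 and 36.8 CPM in G2/M cells, and at 7.95 and 9.57 CPM in low-score cells. All 5 subunits of the clamp loader, RFC1 to RFC5, were called higher in both comparisons. The one gene not called against low-score cells was POLD4, the small accessory subunit of polymerase delta, at 95.3 and 103 CPM in S-phase cells and 123 and 125 CPM in low-score cells. POLE3, whose protein also serves in chromatin remodelling, was not called against G2/M cells, at 67.5 and 62.9 CPM in S-phase cells and 67.2 and 67.3 CPM in G2/M cells, which overlap.

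Genes of nucleotide supply differed less from G2/M cells. Of 20 genes, 13 were called higher and 0 lower against low-score cells (median 0.86), beside 13% and 14.3% of all genes tested. Against G2/M cells, 7 were called higher and 2 lower (median 0.37), beside 11.7% and 8.53% of all genes tested. The median was -0.18 against only the 32 G2/M cells that were also in the top 12% by score. TYMS, which makes thymidylate, was at 473 and 468 CPM in S-phase cells, at 421 and 418 CPM in G2/M cells, and at 168 and 180 CPM in low-score cells. TK1, the thymidine kinase of the salvage route, was at 160 and 152 CPM in S-phase cells, at 128 and 138 CPM in G2/M cells, and at 45.5 and 47.1 CPM in low-score cells. Neither passed the 1.5-fold limit against G2/M cells, although both were higher in S-phase cells in both libraries. DUT, DCK, CTPS1, MTHFD1, GART and SHMT1 were among those called higher against G2/M cells, and CTPS1, which makes CTP, was at a log2 fold change of 1.14. RRM2B, the p53-induced counterpart of RRM2, was called lower against G2/M cells, at 114 and 108 CPM in S-phase cells and 172 and 172 CPM in G2/M cells. DTYMK, which phosphorylates thymidylate further, was the other, at 168 and 163 CPM in S-phase cells and 265 and 269 CPM in G2/M cells.

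Of 17 genes that assemble chromatin and keep DNA methylation on new strands, 16 were called higher and 0 lower against low-score cells (median 2.33). Against G2/M cells, 10 were called higher and 1 lower (median 0.93, or -0.0019 against those 32 G2/M cells). The shares of all genes tested were 13% and 14.3% against low-score cells, and 11.7% and 8.53% against G2/M cells. SLBP, which binds the stem loop at the end of histone mRNAs, was at 137 and 128 CPM in S-phase cells, at 19.8 and 19.3 CPM in G2/M cells, and at 27.1 and 27.9 CPM in low-score cells. CHAF1A, the large subunit of the assembly factor CAF-1, was at 89.2 and 85.04 CPM in S-phase cells, at 19.7 and 18.8 CPM in G2/M cells, and at 7.10 and 8.72 CPM in low-score cells. DNMT1, the maintenance methyltransferase, and UHRF1, which brings it to new DNA, were called higher in both comparisons, at log2 fold changes of 0.93 and 1.87 against G2/M cells and 1.99 and 2.59 against low-score cells. EZH2, the polycomb methyltransferase, differed from low-score cells by 2.88 on the log2 scale but was not called against G2/M cells, at 201 and 204 CPM in S-phase cells and 159 and 145 CPM in G2/M cells. SLBP was thus lower in G2/M cells than in low-score cells, as CCNE1 was.

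Checkpoint and repair genes had the highest median of the replication lists against low-score cells, 3.38, with 24 of 25 called higher and 0 lower. Against G2/M cells, 18 were called higher and 1 lower (median 1.20). Among all genes tested, 13% were higher and 14.3% lower against low-score cells, and 11.7% and 8.53% against G2/M cells. EXO1, a nuclease of mismatch repair, was at 59.5 and 53.4 CPM in S-phase cells, at 12.2 and 10.3 CPM in G2/M cells, and at 0.853 and 0.703 CPM in low-score cells. UNG, which removes uracil from DNA, was at 46.6 and 48.3 CPM in S-phase cells, at 3.00 and 3.33 CPM in G2/M cells, and at 11.1 and 11.6 CPM in low-score cells. MSH6, a mismatch sensor, was at 132 and 131 CPM in S-phase cells, at 20.2 and 19.3 CPM in G2/M cells, and at 34.1 and 34.9 CPM in low-score cells. UNG and MSH6 shared with SLBP and CCNE1 the order S-phase cells, low-score cells, G2/M cells. BRCA1, which acts in homologous recombination, was called higher in both comparisons, at a log2 fold change of 1.47 against G2/M cells and 3.396 against low-score cells. ATR, the kinase that senses stalled forks, was called in neither, at 76.5 and 73.0 CPM in S-phase cells, 65.4 and 61.4 CPM in G2/M cells, and 69.8 and 66.0 CPM in low-score cells.

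**Figure D3:**
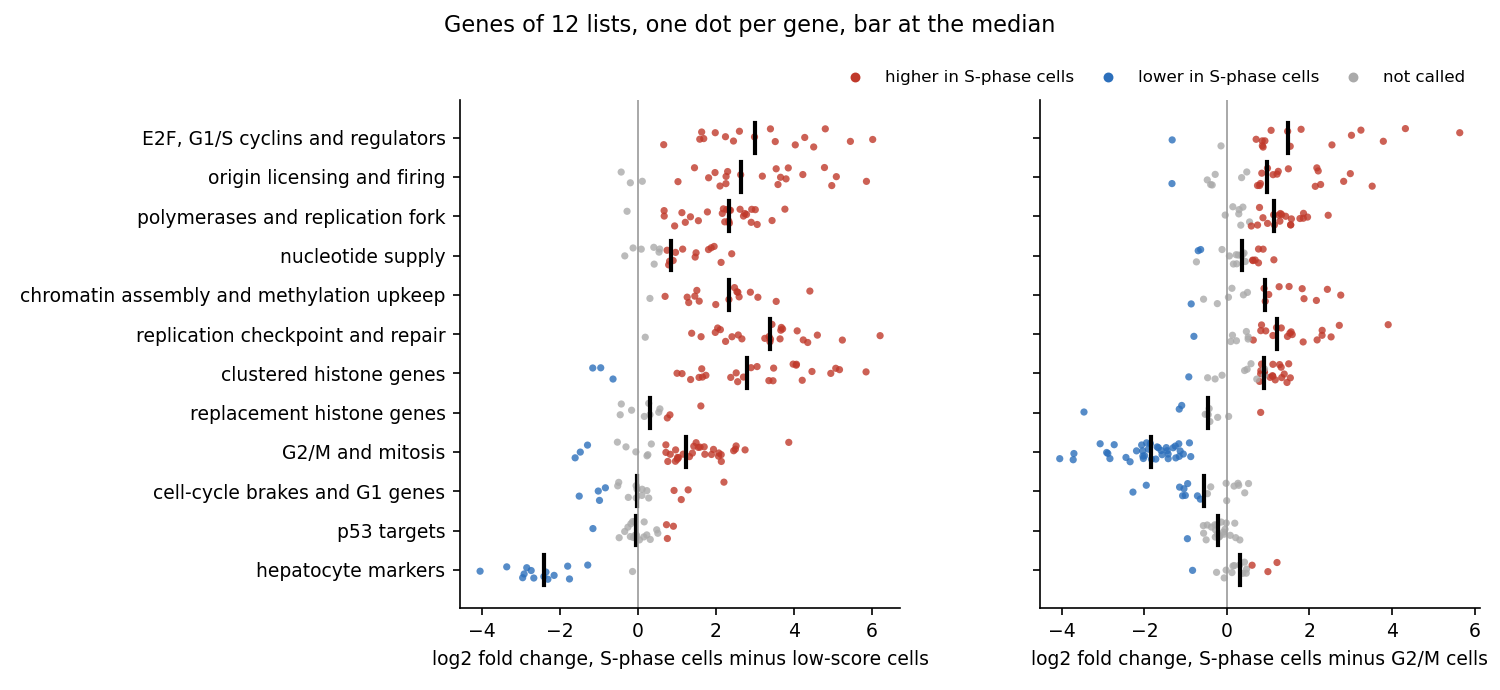
Log2 fold changes of genes in 12 lists, S-phase cells minus low-score cells (left) and S-phase cells minus G2/M cells (right), with 1 dot per gene, red for genes called higher, blue for genes called lower and grey for genes not called. Black bars mark the medians: the medians of the replication lists lie to the right of 0 in both panels, and the G2/M list has its median at 1.24 in the left panel and at -1.84 in the right.

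The clustered histone genes, whose expression is tied to DNA synthesis, were high in S-phase cells. Most of their mRNAs end in a stem loop without a poly(A) tail, whereas 10x capture relies on poly(A), so the counts hold only part of these transcripts. Of 41 genes, 28 passed the filter on low counts, and the other 13 had 0 to 18 UMIs in each group. Of the 28, 25 were called higher and 3 lower against low-score cells (median 2.80), beside 13% and 14.3% of all genes tested. Against G2/M cells, 18 were called higher and 1 lower (median 0.91), beside 11.7% and 8.53% of all genes tested. H4C3 (ENSG00000197061), a histone H4 gene, was at 1104 and 1015 CPM in S-phase cells, at 631 and 587 CPM in G2/M cells, and at 132 and 133 CPM in low-score cells. H1-5, a linker histone gene, was at 112 and 97.1 CPM in S-phase cells, at 52.7 and 43.9 CPM in G2/M cells, and at 2.04 and 1.69 CPM in low-score cells. H2AC12 had log2 fold changes of 1.31 against G2/M cells and 5.07 against low-score cells. Histone genes are near copies of each other, so how reads were divided between single members is uncertain, and the sum over the list is less affected by this: it was at 2205 and 2005 CPM in S-phase cells, 1237 and 1112 CPM in G2/M cells, and 407 and 389 CPM in low-score cells. Against only the 32 G2/M cells that were also in the top 12% by score, the histone list median was -0.92 in place of 0.91.

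A few histone genes differed from the rest. H2AC6, H2BC5 and H2BC11 were the 3 called lower against low-score cells, with H2AC6 at 24.9 and 21.96 CPM in S-phase cells and 55.8 and 53.1 CPM in low-score cells. Of 11 replacement histone genes, which are expressed outside S phase too, 3 were called higher and 0 lower against low-score cells, beside 13% and 14.3% of all genes tested. Against G2/M cells, 1 was called higher and 3 lower, beside 11.7% and 8.53% of all genes tested. CENPA, the centromeric histone H3 variant, was at 16.3 and 19.8 CPM in S-phase cells, at 193 and 200 CPM in G2/M cells, and at 23.7 and 26.2 CPM in low-score cells. H2AX, the variant phosphorylated at DNA breaks, was at 68.6 and 69.5 CPM in S-phase cells, at 154 and 152 CPM in G2/M cells, and at 22.02 and 25.2 CPM in low-score cells. MACROH2A2 was the gene called higher against G2/M cells, at a log2 fold change of 0.82.

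The genes of G2 and mitosis were mostly at a level between those of the other groups in S-phase cells. All 38 genes tested were called lower in S-phase cells than in G2/M cells, beside 8.53% of all genes tested. The median log2 fold change was -1.84. The rule had set these groups apart by TOP2A, MKI67 and CENPF, genes of the same phase. This direction thus went with the choice of cells and is no evidence independent of it. CCNB2 and UBE2C, the other 2 of the 40, were not tested because their counts were too low. Against low-score cells, 29 were called higher and 3 lower (median 1.24), beside 13% and 14.3% of all genes tested. CDK1, the kinase of mitotic entry, was at 113 and 119 CPM in S-phase cells, at 256 and 258 CPM in G2/M cells, and at 7.77 and 8.86 CPM in low-score cells. AURKB, KIF11, NCAPG and ANLN showed the same order, with log2 fold changes of -1.25, -1.24, -0.88 and -1.13 against G2/M cells and 2.50, 2.14, 2.74 and 2.07 against low-score cells. CCNB1, which encodes cyclin B1, the partner of CDK1, did not: it was at 28.4 and 30.7 CPM in S-phase cells, at 482 and 489 CPM in G2/M cells, and at 92.3 and 93.2 CPM in low-score cells. KIF20A and PTTG1 were the other 2 called lower against low-score cells, at log2 fold changes of -1.48 and -1.29. PLK1 was at 12.7 and 14.1 CPM in S-phase cells, at 168 and 180 CPM in G2/M cells, and at 15.7 and 18.8 CPM in low-score cells. The low-score cells also held cells with mitotic transcripts: cluster 5 of the clusters described below, led by CCNB1, NEK2, CDC20 and DLGAP5, made up 10.3% and 11.95% of them, and 15.5% and 15.9% of its cells were G2/M cells. When the 425 G2/M cells with a score at or below the median were kept among the low-score cells, the list median against them was 0.28 in place of 1.24.

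Cell-cycle inhibitors and G1 genes were called in both directions. Of 18 such genes, 4 were called higher and 4 lower against low-score cells, beside 13% and 14.3% of all genes tested. Against G2/M cells, 0 were called higher and 9 lower, beside 11.7% and 8.53% of all genes tested. CDKN1A, the p53-induced inhibitor p21, was at 336 and 331 CPM in S-phase cells, at 302 and 286 CPM in G2/M cells, and at 321 and 318 CPM in low-score cells, and it was called in neither comparison. CDKN1B, the inhibitor p27, was at 14.4 and 14.6 CPM in S-phase cells, at 32.8 and 30.8 CPM in G2/M cells, and at 14.01 and 13.9 CPM in low-score cells. CCNG2, a cyclin of quiescent cells, was at 6.30 and 6.96 CPM in S-phase cells, at 30.1 and 34.1 CPM in G2/M cells, and at 12.5 and 11.7 CPM in low-score cells. CDK4 and RB1 were called higher against low-score cells, at log2 fold changes of 1.29 and 0.92, and not called against G2/M cells.

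The S-phase cells were not alike among themselves. They were put in 4 bins of equal size in each library by their summed level of TOP2A, MKI67 and CENPF, which had only to lie below the limit for G2/M cells, and levels were compared across the bins without a test. Median UMIs changed little across the bins, from 19404 to 21625 in replicate 1 and from 11598 to 13213 in replicate 2, and the median score ranged from 0.964 to 1.10. The summed clustered histone level was 657, 1412, 2606 and 3922 CPM from the lowest to the highest bin in replicate 1, and 638, 1366, 2329 and 3526 CPM in replicate 2. H1-5 was at 13.7, 63.1, 118 and 237 CPM in replicate 1 and at 13.8, 49.4, 109 and 206 CPM in replicate 2. The histone level was thus higher in each later bin, while the score changed little.

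Other genes were lower in the later bins. DTL was at 123, 116, 84.6 and 52.3 CPM in replicate 1 and at 119, 112, 96.4 and 50.5 CPM in replicate 2. MSH6 was at 173, 154, 132 and 76.2 CPM in replicate 1 and at 161, 153, 138 and 74.5 CPM in replicate 2. CCNE1 was at 25.1, 25.9, 19.8 and 7.52 CPM in replicate 1 and at 25.4, 25.2, 12.8 and 5.10 CPM in replicate 2. UNG was at 62.0 and 66.8 CPM in the lowest bin and at 26.7 and 22.9 CPM in the highest. CCNE2 was at 98.5, 122, 105 and 58.5 CPM in replicate 1 and at 87.6, 105, 97.4 and 67.3 CPM in replicate 2, so it was highest in the second bin. The cells of the lower bins therefore held more CCNE1, UNG, MSH6 and DTL and fewer histone transcripts than those of the highest bin.

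The score genes did not all follow one order. MCM6 was at 154, 138, 117 and 97.1 CPM across the bins of replicate 1 and at 147, 138, 127 and 94.3 CPM in replicate 2. RRM2 went the other way, at 213, 320, 431 and 537 CPM in replicate 1 and at 196, 323, 405 and 489 CPM in replicate 2. CLSPN stayed between 266 and 284 CPM in replicate 1 and between 265 and 287 CPM in replicate 2. CDK1 was at 63.9, 95.1, 123 and 165 CPM in replicate 1 and at 68.6, 110, 113 and 177 CPM in replicate 2. The summed licensing list changed less, at 1580, 1616, 1552 and 1432 CPM in replicate 1 and at 1553, 1566, 1603 and 1442 CPM in replicate 2.

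**Figure D4:**
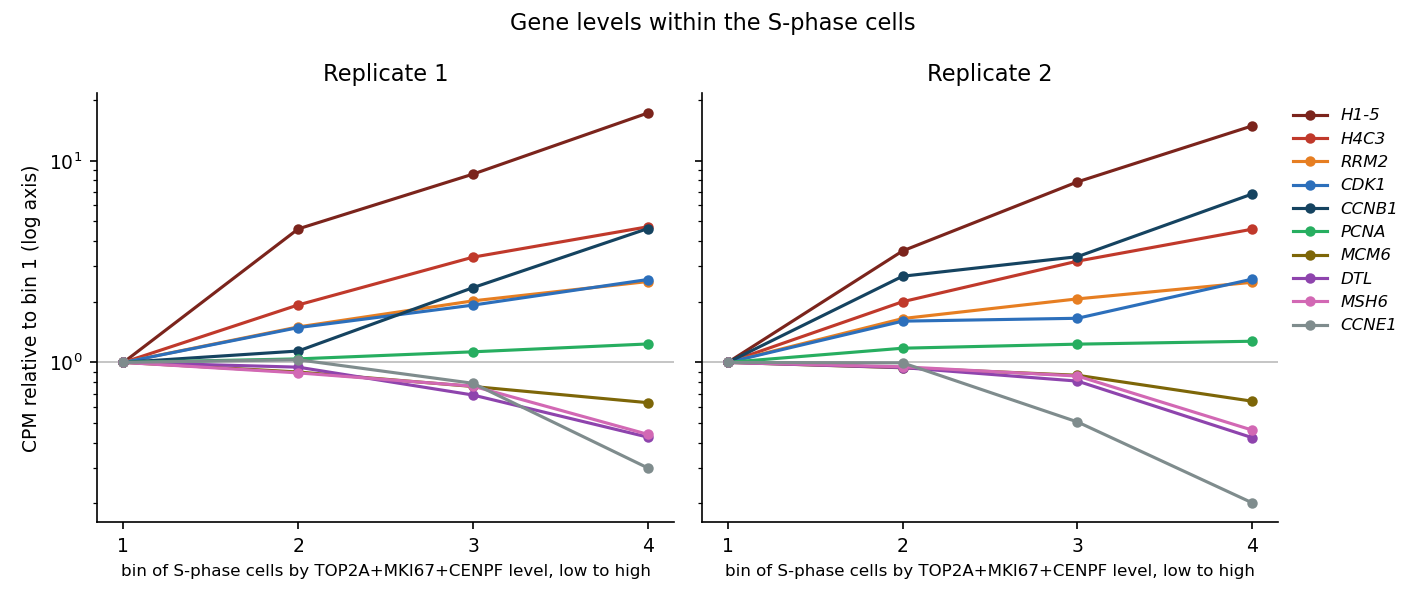
CPM of 10 genes in 4 equal bins of S-phase cells ordered by their TOP2A, MKI67 and CENPF level, relative to the lowest bin (log axis), for each library. H1-5, H4C3, RRM2, CDK1 and CCNB1 are higher in the last bin than in the first, PCNA changes less, and MCM6, DTL, MSH6 and CCNE1 are lower in the last bin, in both libraries.

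S-phase cells were spread unevenly over clusters that had been made without the genes of the lists. The share was highest in cluster 7, with SFTA1P, FAM111B and CCNE2 among its leading genes, where 43.8% of 313 cells in replicate 1 (95% Clopper-Pearson interval 38.2 to 49.5%) and 39.3% of 354 cells in replicate 2 (34.1 to 44.6%) were S-phase cells. In the mesenchymal-like cluster 1, with 4 of 12 mesenchymal markers raised (COL3A1, DCN, PDGFRB and SPARC), it was 26.6% (22.9 to 30.6%) and 25% (21.7 to 28.5%). In the mesenchymal-like cluster 2, it was 1.75% (0.844 to 3.20%) and 2.98% (1.74 to 4.72%), with LUM raised beside those markers, 5 of 12. KRT19, a biliary and progenitor marker, was also raised in both clusters, at 905 CPM in cluster 1 and 1176 CPM in cluster 2, and PECAM1, an endothelial marker, in cluster 2. TOP2A, a gene of the G2/M rule, was at 798 CPM in cluster 1 and 85.8 CPM in cluster 2. In the hepatocyte-like cluster 4, led by TF, ALB and GC, 1.80% (0.728 to 3.68%) and 2.24% (1.12 to 3.97%) were S-phase cells. In cluster 5 there were 0 S-phase cells of 394 and of 464, with Clopper-Pearson upper bounds of 0.932% and 0.792%. The limit that 3 counts would set is 0.761% and 0.647%. Cluster 1 held 27.5% and 27.9% of all S-phase cells, and cluster 7 held 26.6% and 24.3%. FAM111B, PIF1, NEK2 and FAM83D are in none of the lists. Such cell-cycle genes could take part in the clustering, so the shares are no evidence independent of it, and their part was not tested. Intervals here and elsewhere cover counting error only.

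**Figure D5:**
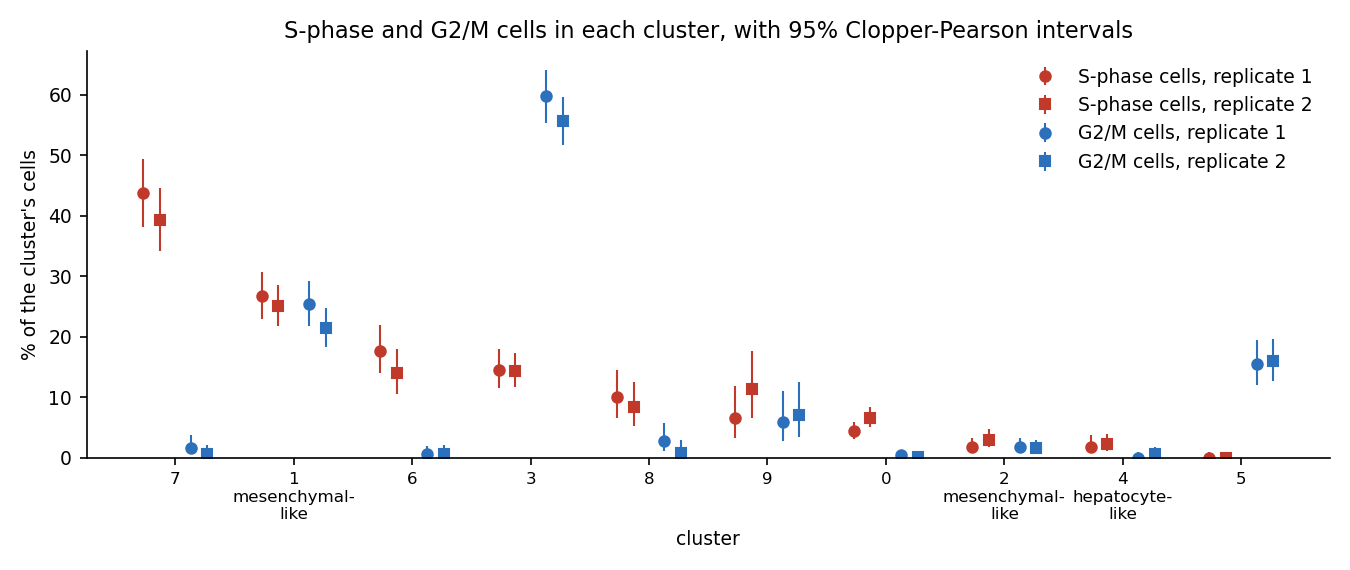
Share of each cluster's cells that were S-phase cells (red) or G2/M cells (blue), with circles for replicate 1, squares for replicate 2 and bars for 95% Clopper-Pearson intervals. Clusters 10 and 11, of 35 and 12 cells, are not drawn, and the others are ordered by their S-phase share: cluster 7 is rich in S-phase cells and nearly without G2/M cells, cluster 1 holds both, cluster 3 is mostly G2/M cells, and the hepatocyte-like cluster 4 has few of either.

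Hepatocyte markers were low in S-phase cells. Of 15 markers tested, 14 were called lower and 0 higher against low-score cells, beside 14.3% and 13% of all genes tested. The median log2 fold change was -2.41. Against G2/M cells, 3 were called higher and 1 lower, beside 11.7% and 8.53% of all genes tested. The median there was 0.31, or -0.16 both with cells thinned to 4000 UMIs and without the hepatocyte-like and mesenchymal-like clusters. ALB, serum albumin, was at 468 and 494 CPM in S-phase cells, at 391 and 378 CPM in G2/M cells, and at 3579 and 3934 CPM in low-score cells. TF, transferrin, was at 12.1 and 15.4 CPM in S-phase cells, at 8.69 and 12.6 CPM in G2/M cells, and at 222 and 241.1 CPM in low-score cells. Hepatocyte-like cluster 4 made up 1.36% and 1.92% of S-phase cells but 14.7% and 16.6% of low-score cells. With cluster and library as terms of the fit, over sums per cluster, the list median was -0.53, and without the hepatocyte-like and mesenchymal-like clusters it was -0.59. HP, haptoglobin, was at 83.7 CPM in S-phase cells of replicate 1 and 51.8 CPM in those of replicate 2, against 36.4 and 33.1 CPM in G2/M cells and 410 and 529 CPM in low-score cells. ALB had a UMI in 58.7% and 48.5% of S-phase cells and in 61.0% and 53.7% of low-score cells. In cells thinned to 4000 UMIs these shares were 19.4% and 26.7% of S-phase cells and 38.2% and 41.9% of low-score cells. The part of free RNA in these values was not tested.

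Markers of other cell types differed in part between the groups. Of 10 mesenchymal markers tested, 2 were called higher and 0 lower against low-score cells, beside 13% and 14.3% of all genes tested. Against G2/M cells, 0 were called higher and 1 lower, beside 11.7% and 8.53% of all genes tested. The same shares of all genes stand beside the other marker lists here. The summed mesenchymal list was at 247 and 244 CPM in S-phase cells, 221 and 244 CPM in G2/M cells, and 236 and 241.04 CPM in low-score cells. The 2 called higher against low-score cells were COL6A3 and TAGLN, at log2 fold changes of 1.15 and 1.28. COL6A3 was low, at 0.732 to 3.76 CPM in the 4 bins of S-phase cells over both libraries, and TAGLN at 7.49 to 28.6 CPM. KRT19, a keratin of biliary and progenitor cells, was at 804 and 826 CPM in S-phase cells, at 420 and 387 CPM in G2/M cells, and at 575 and 578 CPM in low-score cells, and it was called against G2/M cells only. Of 6 biliary and progenitor markers tested, 2, KRT19 and CLDN4, were called higher and 0 lower against G2/M cells, and 0 were called higher and 2, SOX9 and SPP1, lower against low-score cells. Summed endothelial markers were at 25.9 and 26.8 CPM in S-phase cells, 15.2 and 15.6 CPM in G2/M cells, and 46.8 and 41.7 CPM in low-score cells, mostly KDR, and 1 or 2 of these markers were at 0 in each group. Immune markers summed to 13.8 and 12.2 CPM in S-phase cells, 9.77 and 11.5 CPM in G2/M cells, and 12.2 and 11.9 CPM in low-score cells, with 3 to 5 of the 8 at 0. Of 3 endothelial markers tested, 0 were called higher and 2, KDR and ENG, lower against low-score cells, and 1, KDR, was called higher and 0 lower against G2/M cells. Of 2 immune markers tested, 0 were called against low-score cells and 1, CD14, was called higher against G2/M cells. In the same bins, CLDN4 ran from 0 to 5.78 CPM, ENG from 0.366 to 2.10 CPM and CD14 from 0.366 to 3.46 CPM. The calls of these 3 genes thus rest on low counts. CXCL13, KCNJ16 and SOX6, a list taken from earlier results of these data, were called lower against low-score cells and not called against G2/M cells. CXCL13 was among the leading genes of cluster 0, and KCNJ16 and SOX6 led none of the clusters made here.

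The stress lists differed in how many of their genes were called. Of 22 p53 targets, 3 were called higher and 1 lower against low-score cells, beside 13% and 14.3% of all genes tested. Against G2/M cells, 0 were called higher and 1 lower, beside 11.7% and 8.53% of all genes tested. The same shares of all genes stand beside the other stress lists. GADD45A, a p53-induced damage gene, was at 281 and 282 CPM in S-phase cells, at 227 and 224 CPM in G2/M cells, and at 151 and 159 CPM in low-score cells. MDM2, the ligase of p53, was at 838 and 811 CPM in S-phase cells, at 1190 and 1094 CPM in G2/M cells, and at 958 and 892 CPM in low-score cells, and it was not called in either comparison. Of 21 genes of the unfolded protein response, 0 were called higher and 3 lower against low-score cells, and 0 higher and 1 lower against G2/M cells. Of 19 genes of the integrated stress response, 10 were called higher and 1 lower against low-score cells, and 1 higher and 1 lower against G2/M cells. That list includes the serine synthesis enzymes PHGDH and PSAT1, at log2 fold changes of 0.81 and 0.95 against low-score cells. GDF15, a stress-induced cytokine and the member called higher in both comparisons, was at 197 and 185 CPM in S-phase cells, at 112 and 106 CPM in G2/M cells, and at 128 and 135 CPM in low-score cells. Across the 4 bins of S-phase cells it was at 104, 156, 201 and 311 CPM in replicate 1 and at 132, 128, 188 and 282 CPM in replicate 2.

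Of 21 heat-shock genes, 4 were called higher and 0 lower against low-score cells, beside 13% and 14.3% of all genes tested. Against G2/M cells, 0 were called higher and 2 lower, beside 11.7% and 8.53% of all genes tested. HSPA8, the constitutive chaperone HSC70, was at 676 and 699 CPM in S-phase cells, at 703 and 695 CPM in G2/M cells, and at 394 and 426 CPM in low-score cells. Of 23 NRF2 targets, 1 was called higher and 4 lower against low-score cells and 0 in either direction against G2/M cells, and of 23 hypoxia targets 0 were called higher and 7 lower against low-score cells, beside 14.3% of all genes lower, and 0 higher and 2 lower against G2/M cells. The AKR1C genes among the NRF2 targets are near copies, so their split is uncertain. Of 14 immediate early genes, 2 were called higher and 5 lower against low-score cells, and 1 higher and 2 lower against G2/M cells, beside the same shares of all genes. FOS, which dissociation can induce, was at 5.75 and 6.56 CPM in S-phase cells, at 10.7 and 7.27 CPM in G2/M cells, and at 14.7 and 15.9 CPM in low-score cells.

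Some of the largest differences lay outside the lists. FAM111B, a protease gene of the cell cycle, was at 203 and 195 CPM in S-phase cells, at 11.0 and 11.95 CPM in G2/M cells, and at 1.22 and 2.20 CPM in low-score cells, and it had the largest log2 fold change against low-score cells among genes at a mean of 20 CPM or more, 7.00 ± 0.09 (SE, adjusted p = 7.2e-75). PIF1, a helicase gene, stood at the other end against G2/M cells, at 0.731 and 3.21 CPM in S-phase cells, 99.5 and 93.0 CPM in G2/M cells, and 3.35 and 4.92 CPM in low-score cells, a log2 fold change of -5.80 ± 0.15 against G2/M cells. ARL6IP1, NEK2, FAM83D and TNFAIP8L1 were also among the 10 largest decreases against G2/M cells at a mean of at least 20 CPM, at log2 fold changes of -3.00, -3.23, -3.10 and -3.997. Against low-score cells, the 10 largest decreases among called genes at a mean of at least 20 CPM, outside the rule and of 1 direction in both libraries, were 7 genes of the hepatocyte list with GC, the vitamin D binding protein, ADRA1A, an adrenergic receptor, and CYP3A5, a drug-metabolising enzyme. CYP3A5 was at 23.2 and 28.4 CPM in S-phase cells, at 17.8 and 18.5 CPM in G2/M cells, and at 132 and 128 CPM in low-score cells.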

How the data were processed

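The deposited files hold UMI counts per gene and cell barcode, which the authors made with Cell Ranger 7.0.0, per the file headers. STAR and GRCh38 are named in the submitters' processing notes, and antibody features held 0 UMIs. Barcodes were dropped below 500 detected genes or 1000 UMIs, or above a mitochondrial share of 25%, which left 4454 of 4591 in replicate 1 and 4894 of 4998 in replicate 2, with 85475317 and 57246647 UMIs deposited.

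Counts were summed per library and cell group, giving 6 sums in 1 fit with 4 coefficients and 2 residual degrees of freedom. The test was edgeR 4.0.16's quasi-likelihood test with TMM scaling, filterByExpr and the library as a block. Benjamini-Hochberg adjustment ran over 16901 genes, without the 13 genes of the rule. Simulated counts were also run, with a larger spread than in the fit. They held no cells chosen by their own RNA, so they cannot show what that choice does. The block joins sums taken from 1 capture, which share their library by construction. Since the library term takes out any shift common to a library, the p-values reflect how group differences varied between 2 libraries of the same label. With 2 residual degrees of freedom, that spread was estimated with help from all genes, at a common dispersion of 0.000402. Small p-values therefore say nothing of variation between cells or independent cultures. Each SE is the size of the log2 fold change divided by the square root of the F statistic. Clusters were made with scanpy 1.11.5 and leidenalg 0.10.2 from 2000 variable genes outside the lists, 30 principal components, 15 neighbours and a resolution of 0.5, and shares have exact Clopper-Pearson intervals. Of the list genes, 51 were matched by an older symbol. DESeq2 1.42.0 was an alternative.

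Named were the 13 genes of the rule, in each list the 4 highest tested members and any member called, and for each comparison the 10 largest and 10 smallest log2 fold changes among called genes at a mean of at least 20 CPM, outside the rule, of the same direction in both libraries. Some genes that this rule names are not reported here. ORC2, ORC4, ORC5, POLD4 and ATR were named after their values were seen. The cells and the lists were chosen with earlier results of these data known.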

Additional observations from a re-analysis of the deposited data

How the results depend on the processing

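Against low-score cells, 2196 genes were called higher and 2424 lower. DESeq2 called 1906 higher and 1336 lower, so that 58.8% of calls were higher, against 47.5% with edgeR. With cells thinned to 4000 UMIs before scoring, 1309 were called lower. Without a minimum fold, 4948 were higher and 4991 lower. With counts summed per cluster and cluster and library as terms, an alternative added after seeing the data, 1199 were higher and 900 lower. Against G2/M cells, where 1970 were higher and 1441 lower, thinning left 1177 higher, no minimum fold gave 4089 and 3863, sums per cluster gave 1278 and 877, and only the 32 G2/M cells in the top 12% by score gave 352 and 319. The cause of these shifts was not tested.

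With no replicate block, that is without the library term, 2189 genes were called higher and 2412 lower against low-score cells, and 1952 and 1436 against G2/M cells. Leaving out either library leaves no residual degrees of freedom, so only log2 ratios of 1 library were computed.

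Named genes called against low-score cells kept their direction there in every alternative in which they were tested. Here and below, changes of sign were counted only for genes called in the main fit. Against the 32 G2/M cells, log2 fold changes turned to -0.98 for ADRA1A, -0.27 for CDC7, -0.58 for DCK, -0.072 for DNMT1, -0.22 for DUT, -0.0066 for E2F8, -0.10 for EXO1, -0.26 for FEN1, -1.67 for H1-5, -1.30 for H2AC12, -0.99 for H4C3, -0.19 for HP, -0.0798 for MACROH2A2, -0.034 for MTHFD1 and -0.10 for SHMT1. GC against G2/M cells was at -0.48 with the top 6% by score, -1.36 with thinned cells and -1.29 without hepatocyte-like and mesenchymal-like clusters. With sums per cluster, FOS was at 0.026 and NCAPG at 0.024 against G2/M cells. Depth limits genes of a few CPM, such as PIF1 in S-phase cells.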
